A study of Homo sapiens with 12 samples.

Results

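The baseline transcriptomes of A549 and PC9, a pair of established human cell lines from lung adenocarcinoma, were compared in cells that carried only an empty vector. The comparison takes the 3 A549-NEO libraries against the 3 PC9-NEO libraries, 6 of the 12 libraries of the series, and covers the 12584 genes of the count table as held here, which is ordered by Ensembl ID and cut off before its end, so that genes with later IDs, HOXC6 among them, were not analysed here. Of these, 9076 had enough counts to be tested. Every library of both groups came from cells stably infected with the empty lentiviral vector pCDH-NEO and selected with neomycin, so the vector and the selection were shared. The other 6 libraries carried HOXC6 in the same vector and served as a repeat of the line comparison in separate libraries. A549 was kept in an RPMI medium and PC9 in DMEM, so the cell line and its medium cannot be told apart. Poly(A) RNA was sequenced as strand-specific paired reads. The labels call the 3 libraries of a group independent replicates without naming separate infections, and the p-values measure the spread between these libraries, which may be technical.

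As background, A549 has lost the KEAP1 and STK11 functions and the CDKN2A region of chromosome 9p21. PC9 carries an activating deletion in EGFR, the receptor tyrosine kinase that drives its growth. EGFR feeds the MAPK pathway, which in turn induces its own feedback phosphatases. Carcinoma lines also differ in how far they hold the epithelial program, in which GRHL and ESRP factors keep junction, protease and splicing genes on, or the mesenchymal program with vimentin and matrix proteins. A gene that is closed in 1 line can be read at high level in the other, so both graded differences and silent genes are described.

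The total over the genes of the table ran from 2467565 to 2883304 counts in A549-NEO and from 1768574 to 2233100 in PC9-NEO, and each A549 library was deeper than each PC9 library. The floor of 3 counts per library corresponds to 1.04 to 1.22 CPM (the count scaled to library size with TMM factors) in A549-NEO and 1.34 to 1.7 CPM in PC9-NEO, and it covers counting error only. The libraries were checked against markers. Of the 6 epithelial markers tested, 5 were higher in PC9 and 0 in A549 (median log2 fold change -3.66), so most of these markers were lower in A549. The remaining one, KRT7, had 6808 CPM ± 104 (SD, n = 3) in A549-NEO and 4913 ± 264 in PC9-NEO and was not called. Leukocyte markers summed to 18.1 to 23.9 CPM in A549-NEO and 7.71 to 15.3 CPM in PC9-NEO, and no A549 library held a count of PTPRC. Of the 7 leukocyte markers in the table only 2 could be tested, of which 1 was higher in A549 and 0 in PC9. The one higher in A549 was NKG7, with 8.85 CPM ± 2.37 against 1.86 ± 1.39 in PC9-NEO (log2 fold change 2.16, SE 0.46). The lung lineage factor NKX2-1 had 1 count in the 3 A549 libraries and 4 counts in the 3 PC9 libraries, so this marker of lung adenocarcinoma was close to absent in both. CDKN2A, lost in A549, had 1 count in A549-NEO and 2330 counts in PC9-NEO.

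The difference between the lines was broad. Called genes had a log2 fold change above 1 or below -1 and an adjusted p under 0.05 in edgeR's quasi-likelihood test. By this rule 1779 genes were higher in A549-NEO (19.6% of 9076 tested) and 1491 were higher in PC9-NEO (16.4%), together 36.0% of the genes. Among the 3270 called genes, the 3 libraries of 1 line did not overlap with those of the other for 3255. The call itself favours such separation, and the share over all tested genes was not computed, so this count adds no separate support. At any size of change, 6596 genes (72.7%) had an adjusted p under 0.05. The difference passed 3 on the log2 scale for 507 called genes higher in A549 and 355 higher in PC9. The median absolute log2 fold change over all tested genes was 0.70, while the signed median was 0.02.

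**Figure D1:**
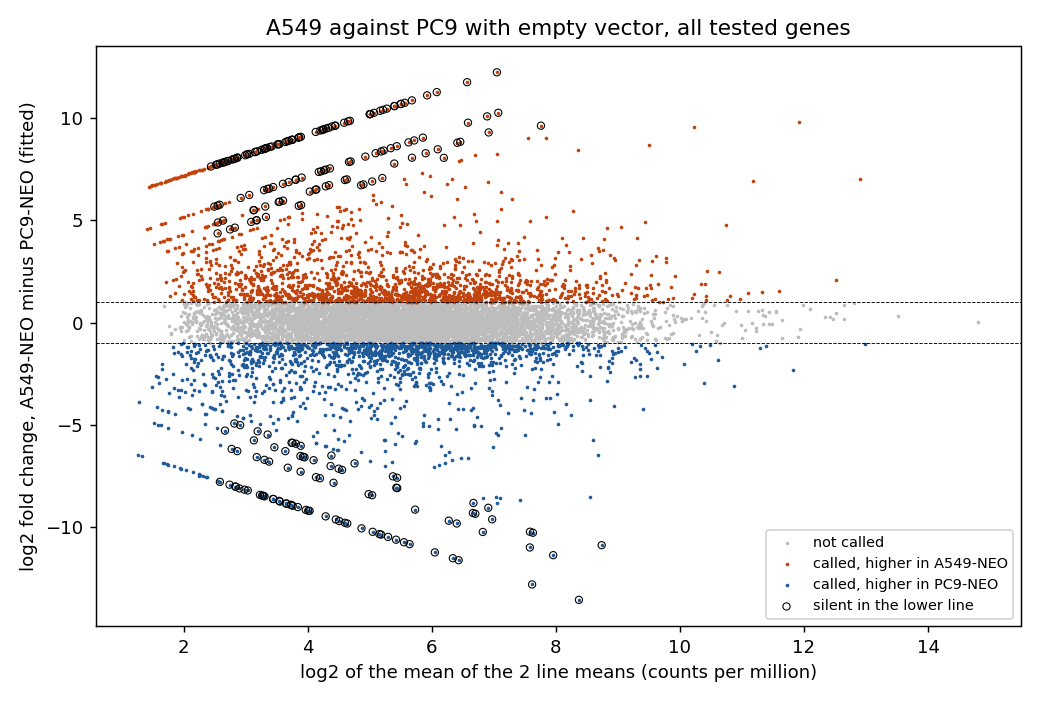
Fitted log2 fold change (A549-NEO minus PC9-NEO) of each tested gene against the log2 of the mean of the line means in CPM, with called genes in colour and genes silent in the lower line circled. Of 9076 genes, 1779 lie above the upper dashed line as called and 1491 below the lower one. The circled genes form the oblique rows at both edges, where the fitted value depends on the prior count and is no bound.

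A gene was taken as silent in a line when its 3 NEO libraries held at most 3 counts in all while each library of the other line had at least 10 CPM. Such genes were found in both directions, 142 silent in PC9-NEO and 93 silent in A549-NEO. Of these, 72 and 42 had no count at all in the silent line. Since the class is defined by the same 6 libraries, its size is a description without a test. The class extended over a wide range of levels in the other line, with a median of 29.7 CPM and a highest value of 433 CPM for genes silent in PC9, and 33.9 and 854 CPM for genes silent in A549. Among the 10 most abundant genes of each set, the silent line held 15 counts against 17572 in the other line for PC9, or 0.106% of the other line's level. For A549 it held 15 against 26168, or 0.0461%. Because the rule allows at most 3 counts per gene in the silent line, it kept both shares low.

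Genes read in A549 and silent in PC9 included extracellular matrix, junction and channel genes. VCAN, the matrix proteoglycan versican (chromosome 5, 82767437 to 82878122 on GRCh37), was counted 1213, 984 and 1086 times in A549-NEO, against 0, 3 and 0 in PC9-NEO. The ratio after scaling was 880, with a 95% exact counting interval of 301 to 4269. GJA1, the gap junction protein connexin 43, had 685, 691 and 653 counts against 0, 0 and 1 (ratio 1632, interval 292 to 64473). For both genes the A549 libraries were high and the PC9 libraries at or near 0, a separation that the rule for silent genes fixed. CACNG7, a calcium channel gamma subunit, and BICC1, an RNA-binding protein, had no count in PC9. Against a floor of 3 counts over the group, CACNG7 was at least 539.5-fold higher in A549, and BICC1 at least 384-fold. CXCL5, a chemokine that attracts neutrophils, had 692, 575 and 535 counts in A549-NEO against 0, 0 and 1. The contactin gene CNTN1, the calcium-binding protein TESC, the cytoskeletal adducin ADD2 and the mucin-type glycosyltransferase GCNT3 completed the set, with 1 to 3 counts each in PC9 and ratios from 296 to 1172.

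UBE2M, the enzyme that conjugates NEDD8 to cullins, was in the same set although its product serves ubiquitin ligases in most cells. It had 180, 157 and 190 CPM in A549-NEO and 2 counts in the 3 PC9-NEO libraries (ratio 536, interval 148 to 4430), and no count in the 3 PC9-HOXC6 libraries. Its neighbour MZF1, a zinc finger factor and the last gene of the table on chromosome 19 (59073298 to 59084942), had 686 counts in A549-NEO and 0 in PC9-NEO. The next genes inward were read in PC9: CHMP2A, the next one, had a mean of 377 CPM in PC9-NEO and 178 CPM in A549-NEO (log2 fold change -1.08, SE 0.08, adjusted p = 3.4e-15), and TRIM28 had 1695 and 1212 CPM. MZF1, CHMP2A and TRIM28 were chosen after their values were seen.

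Genes read in PC9 and silent in A549 included secreted and membrane-bound proteases and epithelial regulators. KLK6, a kallikrein serine protease, had 1509, 1645 and 2066 counts in PC9-NEO and 1 count in each A549-NEO library (ratio 2164, interval 740 to 10496). KLK5, next to it, had 667, 756 and 984 counts against none, at least 998-fold higher, and KLK8 had 98 counts in all against none. These 3 are the only run of 3 or more neighbouring genes of the table silent in the same line, on chromosome 19 from 51446559 to 51505967, and the next member, KLK10, was lower in A549 without being silent (22 counts against 125). ALPP, the placental alkaline phosphatase, had 1170, 1170 and 1728 counts against none, at least 1686-fold higher, with the reservation that near-identical alkaline phosphatase genes can share its reads. S100A9, a calcium-binding protein of inflamed epithelia and myeloid cells, had 932, 935 and 1159 counts against 0, 0 and 1. ST14, the membrane protease matriptase, MAL2, a protein of apical transport, and ESRP1, the epithelial splicing regulator, had 396, 383 and 226 CPM in PC9 and 1 or 2 counts in A549. IGFBP5 binds insulin-like growth factors and TIMP3 inhibits metalloproteinases. Both had 2 or 3 counts in A549-NEO against 251 CPM ± 24 and 240.2 CPM ± 5.05 in PC9-NEO.

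**Figure D2:**
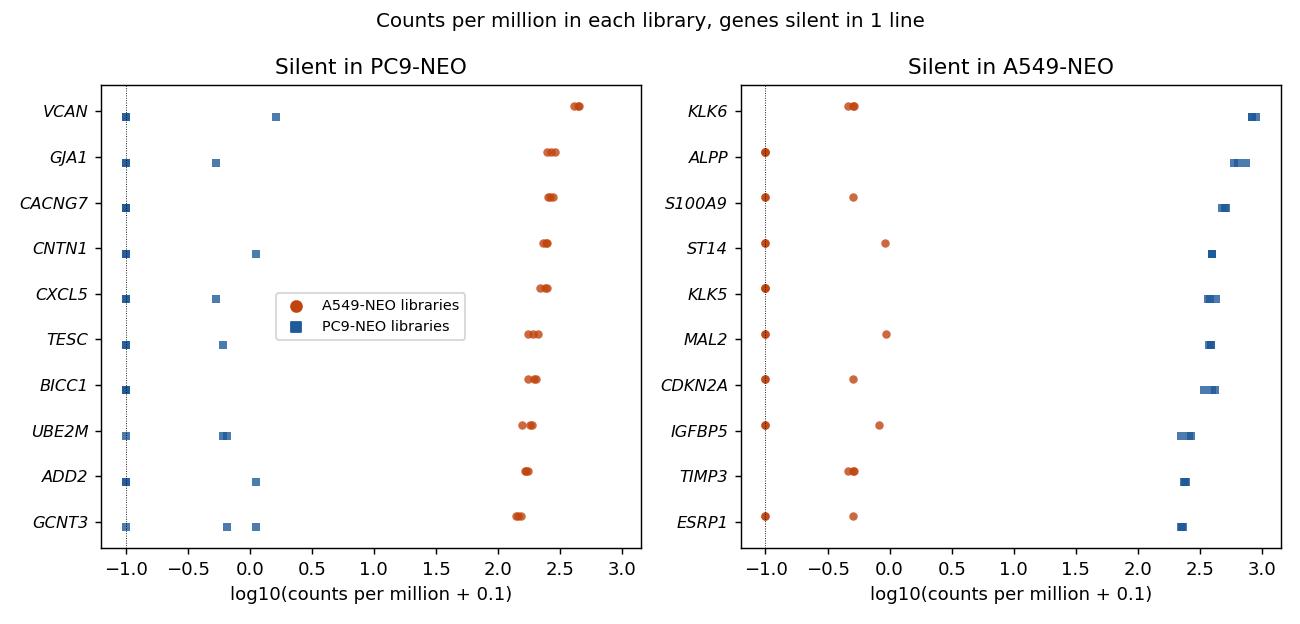
Level in each library, as log10(CPM + 0.1), of the 10 genes with the highest mean among those silent in PC9-NEO (left) and in A549-NEO (right), with A549-NEO libraries as circles and PC9-NEO libraries as squares. The dotted line marks libraries with no count, and no gene has more than 3 counts over the silent line's libraries.

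The proximal promoters of 4 genes from each set are shown because they hold the letters before the annotated start of genes read in 1 line and silent in the other. CpG dinucleotides, the sites of DNA methylation, also differ in number between them. The start used in each line was not measured. The genes are the most abundant of each set with a single RefSeq entry on a chromosome other than 8, and no methylation was measured. Each run gives the 150 bases before the start (GRCh38.p14, RefSeq), written 5′ to 3′ in the direction of the gene, and capitals mark CpG dinucleotides. The runs are VCAN on chr5:83471594-83471743 (forward strand), GJA1 on chr6:121435496-121435645 (forward strand), CXCL5 on chr4:73998678-73998827 (reverse strand), UBE2M on chr19:58558612-58558761 (reverse strand), KLK6 on chr19:50969592-50969741 (reverse strand), ALPP on chr2:232378601-232378750 (forward strand), S100A9 on chr1:153357704-153357853 (forward strand) and KLK5 on chr19:50953039-50953188 (reverse strand).
VCAN: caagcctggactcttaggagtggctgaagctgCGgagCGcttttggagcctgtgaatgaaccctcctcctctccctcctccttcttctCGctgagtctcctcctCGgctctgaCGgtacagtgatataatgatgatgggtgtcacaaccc
GJA1: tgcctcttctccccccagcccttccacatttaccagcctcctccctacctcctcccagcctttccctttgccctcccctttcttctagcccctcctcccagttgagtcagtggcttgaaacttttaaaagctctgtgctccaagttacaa
CXCL5: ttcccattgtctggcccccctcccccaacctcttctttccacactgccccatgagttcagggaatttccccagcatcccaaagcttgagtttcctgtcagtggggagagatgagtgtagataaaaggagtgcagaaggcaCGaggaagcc
UBE2M: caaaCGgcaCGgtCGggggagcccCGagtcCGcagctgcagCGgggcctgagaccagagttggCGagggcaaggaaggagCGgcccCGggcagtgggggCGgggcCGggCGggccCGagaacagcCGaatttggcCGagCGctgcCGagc
KLK6: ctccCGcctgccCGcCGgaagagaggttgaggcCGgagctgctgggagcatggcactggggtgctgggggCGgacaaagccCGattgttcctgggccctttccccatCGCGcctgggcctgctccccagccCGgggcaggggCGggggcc
ALPP: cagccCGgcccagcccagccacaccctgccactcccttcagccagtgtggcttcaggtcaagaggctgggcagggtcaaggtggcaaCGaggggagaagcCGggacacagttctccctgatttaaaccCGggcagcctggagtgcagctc
S100A9: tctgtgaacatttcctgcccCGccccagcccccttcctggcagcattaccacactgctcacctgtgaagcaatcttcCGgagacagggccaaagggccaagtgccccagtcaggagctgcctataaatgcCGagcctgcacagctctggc
KLK5: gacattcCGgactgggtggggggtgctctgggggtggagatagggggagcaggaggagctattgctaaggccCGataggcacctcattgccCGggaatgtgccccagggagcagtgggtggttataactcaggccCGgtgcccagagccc
The run of GJA1 holds no CpG and that of CXCL5 holds 1, whereas UBE2M holds 17 and KLK6 holds 10. Hence genes silent in the same line had promoters with few and with many CpG.

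Over all matched promoters (250 bases before to 50 after the start), CpG content was lower for genes silent in A549. A promoter was counted as CpG-rich when its GC content was above 50% and its observed over expected CpG above 0.6. This held for 73.7% of 10904 promoters of tested genes and for 46.8% of all 35114 promoters. It held for 58.5% of the 164 promoters of 96 matched genes silent in PC9 and for 39.8% of the 93 promoters of 65 matched genes silent in A549. Among genes with no count, the share was 69.1% of 94 promoters for PC9 and 40.9% of 44 promoters for A549. The PC9 share thus depended on how silence was defined. The AP-1 site TGANTCA, searched on both strands, was in 9.76% of promoters of genes silent in PC9 and 8.6% of those silent in A549. It was in 5.14% of promoters of tested genes and in 7.71% of all promoters. For genes with no count in PC9 the share was 4.26%, and for those with no count in A549 it was 9.09%. The antioxidant response element TGACNNNGC was in 6 of 15 promoters of the NRF2 targets described further on (40%), in 10 of 32 promoters of p53 targets (31.2%) and in 13.3% of all promoters. Several promoters can belong to 1 gene, and these shares are descriptions.

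Among genes read in both lines, with at least 10 counts in every library of the lower line, the 10 largest differences toward A549 were led by CYP24A1, the enzyme that inactivates vitamin D. It had 7815, 7808 and 7626 CPM in A549-NEO and 13.2, 7.12 and 6.06 CPM in PC9-NEO (log2 fold change 9.82, SE 0.09, adjusted p = 6.82e-43). IGFBP4, a binding protein for insulin-like growth factors, had 15402, 15232 and 15018 CPM against 104, 122 and 124 CPM (7.02, SE 0.06, adjusted p = 1.54e-44). The retinaldehyde dehydrogenase ALDH1A1 had 4609.7, 4772 and 4484 CPM against 34.7, 42.7 and 35.9 CPM (6.93, SE 0.07, adjusted p = 2.34e-41). All A549 libraries were high and all PC9 libraries low for these 3 genes, which were chosen for large differences without overlap. The set also held the MAPK phosphatase DUSP1 (log2 fold change 5.46), the channel HCN2 (5.16), the netrin receptor NEO1 (4.98), MORC4 (4.97), the growth factor receptor FGFR1 (4.95), the kinase SIK1 (4.92) and the TGF-β-induced matrix protein TGFBI (4.8).

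Toward PC9, the largest difference of this kind was MUC4, a membrane mucin that can bind ERBB2, with 787, 825 and 815 CPM in PC9-NEO and 10.1, 7.14 and 9.46 CPM in A549-NEO (log2 fold change -6.49, SE 0.11, adjusted p = 1.29e-34). LCN2, the iron-carrier-binding lipocalin, had 754, 731 and 796 CPM against 10.1, 18.5 and 14.8 CPM (-5.73, SE 0.11). SPINT1, the inhibitor of matriptase, had 367, 347 and 355 CPM against 6.51, 7.98 and 9.46 CPM (-5.48, SE 0.13). Groups without overlap were a condition for entering this set. The remaining members were the epithelial sorting adaptor AP1M2 (-5.42), the retinoic acid binding protein CRABP2 (-5.18), the lipoxygenase ALOX5 (-5.08), the adhesion molecule EPCAM (-5.03), the sodium channel subunit SCNN1A (-4.95), filamin C, FLNC (-4.72), and the immediate early factor EGR1 (-4.62).

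Epithelial genes were higher in PC9. Counts in this and the following gene lists stand beside 19.6% of all tested genes higher in A549 and 16.4% higher in PC9. Listed genes outside the table held here were left out, so each count covers a part of its list. Of 23 tested genes for epithelial adhesion and splicing, 17 were higher in PC9 and 2 in A549, with a median log2 fold change of -3.28 beside 0.02 over all genes. The transcription factor GRHL2, which keeps the epithelial program on, had 182, 147 and 156 CPM in PC9-NEO and no count in A549-NEO, at least 407-fold. RAB25, a trafficking GTPase of epithelia, had 146, 175 and 186 CPM against 1 count in all. PRSS8, the protease prostasin, had 203, 228 and 248 CPM against 1.09, 0.42 and 0 CPM. The PC9 libraries were high and the A549 libraries at or near 0 for these genes, which were named for their large differences. E-cadherin, CDH1, differed far less, with 395, 391 and 380 CPM in PC9-NEO and 190, 199 and 185 CPM in A549-NEO (log2 fold change -1.02, SE 0.07, adjusted p = 2.3e-15), and without A549-NEO replicate 3 its value of -0.98 no longer passed the threshold. The exceptions were CLDN1 (2.01) and TJP1 (1.49), both tight junction genes, which were higher in A549. Of 25 listed keratin and desmosome genes, 14 were in the table held here and 9 could be tested. Of the 9 tested, 5 were higher in PC9 and 0 in A549, among them KRT18 (-2.30), DSP (-1.60), DSC2 (-3.71) and PKP2 (-3.49).

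Mesenchymal genes were the reverse. Of 18 tested, 11 were higher in A549 and 1 in PC9, with a median of 1.67. Vimentin, VIM, had 2394, 2428 and 2361 CPM in A549-NEO and 2.75, 4.07 and 2.6 CPM in PC9-NEO (log2 fold change 9.56, SE 0.11, adjusted p = 2.64e-40). TWIST1, a factor of mesenchymal development, had 13.4, 10.9 and 11.9 CPM against 0, 1.02 and 0. TGFB1I1, an adaptor at focal adhesions, differed by 4.8, ZEB1, a repressor of epithelial genes, by 2.93 and the receptor kinase AXL by 2.77. The member higher in PC9 was MYL9 (-2.05), a myosin light chain at 6.64 CPM or less in both lines. Fibronectin, FN1, was abundant in both and was not called (0.56, adjusted p = 1.52e-12). Of the 10 fibroblast markers, COL1A2, DCN, LUM and FAP had no count in any of the 6 libraries, and the markers summed to 81.5 to 90.4 CPM in A549-NEO and 20.3 to 34.1 CPM in PC9-NEO, mostly from COL1A1 and THY1.

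The list of EGFR family receptors, ligands and adaptors was near the shares over all genes, with 3 of 13 tested members higher in A549 and 2 in PC9, beside 19.6% and 16.4%. EGFR had 1199, 1284 and 1334 CPM in PC9-NEO and 372, 385 and 437 CPM in A549-NEO (log2 fold change -1.68, SE 0.06, adjusted p = 1.31e-23), and ERBB3, the kinase-impaired partner of ERBB2, was higher in PC9 by a larger factor (-3.37). EREG, the EGFR ligand epiregulin, was higher in A549, with 137, 149 and 132 CPM against 8.81, 11.7 and 11.3 CPM (3.70, SE 0.15), and MET, the receptor of hepatocyte growth factor, was also higher there (1.49). Of the 13 MAPK output and feedback genes, 3 were higher in A549 and 4 in PC9, beside 19.6% and 16.4% of all tested genes. The phosphatase DUSP5 (3.10), PHLDA1 (1.83) and IER3 (1.46) were higher in A549. The phosphatase DUSP6 was higher in PC9 (-2.45), and EGR1, CCND1 (-2.19) and the ephrin receptor EPHA4 (-3.32) were higher in PC9.

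Genes of the p53 target list were higher in A549. Of 25 tested, 18 were higher in A549 and 0 in PC9, with a median log2 fold change of 2.06. CDKN1A, the CDK inhibitor p21, had 828, 865 and 788 CPM in A549-NEO and 52.3, 47.3 and 45.9 CPM in PC9-NEO (4.10, SE 0.08, adjusted p = 9.09e-32). GDF15, a stress-induced cytokine, had 836, 907 and 869 CPM against 40.7, 27 and 37.7 CPM (4.63, SE 0.09). MDM2, a ubiquitin ligase, differed less, with 61.1, 66.4 and 57.6 CPM against 20.9, 30 and 19.5 CPM (1.40, SE 0.16, adjusted p = 1.32e-09). The largest values were for EDA2R (7.40), a TNF receptor family member, CYFIP2 (6.88), an actin regulator, and SPATA18 (6.70), a mitochondrial quality control gene with no count in PC9. In the HOXC6 libraries, 14 of 24 tested were higher in A549-HOXC6 and 1 was higher in PC9-HOXC6 (median 1.17).

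On chromosome 9p21 the 3 genes of the table were read in PC9 and close to 0 in A549. CDKN2B, an inhibitor of CDK4 and CDK6, had 75.4, 87.5 and 72.7 CPM in PC9-NEO and no count in A549-NEO, at least 198-fold. CDKN2A, which encodes p16 and ARF, had 416, 338 and 393 CPM against 1 count (ratio 2898, interval 520 to 114500). MTAP, a methionine salvage enzyme, had 18.2, 15.3 and 26.8 CPM against 0.362, 1.68 and 0.411 CPM (log2 fold change -4.59, SE 0.45, adjusted p = 2.33e-11). The neighbouring table gene on the far side with counts, CAAP1, had 13 CPM in A549-NEO and 12.9 CPM in PC9-NEO (0.03, adjusted p = 0.933) and was chosen after its values were seen. Of the 17 tested genes of G1 control, 2 were higher in A549 and 5 in PC9, and CDK4, CDK6 and RB1 were not called.

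Of 32 listed NRF2 targets, which KEAP1 loss releases, only 22 were in the table held here, and these were tested. Among the 22, 9 were higher in A549 and 2 in PC9, with a median of 0.46. In the HOXC6 libraries 11 of 22 were higher in A549 and 0 in PC9, with a median of 0.95. HMOX1, heme oxygenase, had 186, 196 and 193 CPM in A549-NEO and 10.5, 9.15 and 17.7 CPM in PC9-NEO (3.90, SE 0.15, adjusted p = 1.03e-23). The pentose phosphate enzymes PGD (2.45) and TKT (2.09) and the dehydrogenase ALDH3A1 (2.33) were higher in A549. In the opposite direction stood GCLM (-1.11), a subunit of the enzyme that starts glutathione synthesis whose partner GCLC was higher in A549 (1.17), and UGDH (-1.24). KEAP1 mRNA was higher in PC9, with 131, 131 and 142 CPM against 53.5, 52.5 and 61.3 CPM (-1.27, SE 0.11), while NFE2L2, the gene of NRF2, was not called (0.49, adjusted p = 2.12e-04). STK11 was also not called (0.25, SE 0.09, adjusted p = 0.00953), at 189 CPM ± 18.8 in A549-NEO and 159 CPM ± 1.53 in PC9-NEO.

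Enzymes of drug and hormone metabolism went both ways, with 6 of 18 tested higher in A549 and 7 in PC9. Beside CYP24A1 and ALDH1A1, CYP3A5 was higher in A549 (3.56), at 19.9, 21.8 and 18.1 CPM against 1.1, 2.54 and 1.3 CPM. UGT1A6, a glucuronosyltransferase, was higher in PC9 (-4.19), with the reservation that the UGT1A genes share exons. The glutathione transferases GSTM3 (-2.93) and GSTP1 (-1.40) and the aldose reductase AKR1B1 (-1.26) were higher in PC9 as well.

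Chemokines and NF-κB targets were higher in A549, with 11 of 14 tested called in that direction and 1 in the other, and a median of 2.94. CXCL2 had 21, 26.5 and 23.8 CPM in A549-NEO and 1.1, 0.509 and 0.433 CPM in PC9-NEO (5.06, SE 0.43), though reads of the CXC chemokines may be shared. CCL2, which attracts monocytes, and CCL20, which attracts dendritic cells, had 8.08 and 6.21 CPM on average in A549-NEO and no count in PC9-NEO. The NF-κB subunits RELB (2.86) and NFKB2 (1.85) and the inhibitor of apoptosis BIRC3 (3.01) were higher in A549. The exception was the adhesion molecule ICAM1, with 164 CPM in PC9-NEO and 15.3 CPM in A549-NEO (-3.41, adjusted p = 1.61e-22).

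Interferon response genes were split, with 3 of 15 tested higher in A549 and 6 in PC9. BST2, a membrane tether for viruses, had 194, 190 and 223 CPM in PC9-NEO and 2 counts in A549-NEO (ratio 772, interval 213 to 6379). IFITM3, an endosomal restriction factor with close paralogs, was higher in PC9 (-2.48). The factor IRF1 (2.09) and the ligase HERC5 (2.58) were higher in A549. Of 19 listed antigen presentation genes, only 6 were in the table held here and 5 could be tested. Among these, ERAP2, a peptide-trimming enzyme, was higher in PC9, with 53.4, 58 and 48 CPM against 3.26, 3.36 and 1.64 CPM (-4.23, SE 0.26). The MHC class I activator NLRC5 (-2.55) was also higher in PC9, and B2M did not pass the test (-0.06, adjusted p = 0.482).

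Lineage factors were called in both directions. Of 13 tested, 5 were higher in A549 and 4 in PC9. FOXA2, a pioneer factor of foregut endoderm, had 119, 108 and 114 CPM in A549-NEO and 1.65, 0 and 0.433 CPM in PC9-NEO (7.33, SE 0.28, adjusted p = 3.27e-23). HNF4A, a factor of liver and gut epithelium, had 25.3, 23.9 and 25.9 CPM against 0, 0.509 and 1.3 CPM (5.14, SE 0.43), and GATA4 (3.84) and NR5A2 (2.81) were also higher in A549. PC9 was higher for FOXA1 (-3.20), SOX9 (-1.53) and the epithelial ETS factor EHF, at 98, 120 and 98.3 CPM against 1.45, 1.26 and 2.88 CPM (-5.79, SE 0.23). The related factors FOXA1 and FOXA2 thus lay on opposite sides.

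Products of airway secretory cells were low or higher in PC9. Of 18 in the table only 6 could be tested, of which 5 were higher in PC9 and 1 in A549. LCN2 is given above, SLPI, an antiprotease of mucous fluid, had 98, 116 and 124 CPM against 5.79, 2.52 and 2.47 CPM (-4.92, SE 0.21), and the mucin MUC5B (-1.95) and AGR2 (-2.39), which folds mucins, followed. The surfactant lipid transporter ABCA3 was higher in A549 (1.57), whereas SFTPB, SFTPC and SFTPD did not reach a mean of 2 CPM in either line. Plasma protein genes were mostly too low to test (3 of 23), and APOE (3.51) and VTN (2.64) were higher in A549. ALB and AFP had no count in either line. Among complement genes, 3 of 9 were higher in A549 and 1 in PC9. C5 had 93.7, 110 and 110 CPM in A549-NEO against 1.65, 6.61 and 7.36 CPM (4.26, SE 0.21), and the central component C3 was higher in PC9 (-1.37). Of 9 neuroendocrine markers, 8 were in the table and only 3 could be tested. These 3 were higher in A549: CHGB (34, 29 and 25.9 CPM against no count), SYP (2.80) and DLL3 (3.67). Another 3, the defining factor NEUROD1 among them, had no count in either line. The markers summed to only 55.5 to 73.1 CPM in A549-NEO and 2.03 to 6.49 CPM in PC9-NEO.

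In the Wnt pathway, 10 of 25 tested members were higher in A549 and 4 in PC9, beside 19.6% and 16.4% of all tested genes, so the PC9 count was near its background. The 4 were the ligands WNT5A, WNT6, WNT7A and WNT10A, while another ligand, WNT11, was higher in A549 (1.73). WNT6 and WNT10A are neighbours on chromosome 2, with 78.7, 87 and 91.8 CPM and 27, 30 and 30.7 CPM in PC9-NEO against 2 counts each in A549-NEO. WNT7A had 20.9, 29.5 and 30.7 CPM against no count. The secreted inhibitors DKK1 (3.50) and DKK3 (3.59) and the factor TCF7 (3.14) were higher in A549. In the Notch list 4 of 10 were higher in A549, among them the ligand JAG1 (1.57) and the target HEYL (2.36), and 3 in PC9, among them the target HES1 (-1.42).

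Of 22 tested integrin and matrix genes, 11 were higher in A549 and 6 in PC9, beside 19.6% and 16.4% of all tested genes. COL4A2, a basement membrane collagen, had 892, 837 and 906 CPM in A549-NEO and 99.1, 91.5 and 106 CPM in PC9-NEO (3.14, SE 0.07), and the integrin ITGB1 differed by 2.52. In PC9, COL12A1 (-4.02), ITGB8 (-3.90) and tenascin C, TNC, with 66.1, 63.1 and 58.9 CPM against 2.53, 2.1 and 2.47 CPM (-4.69, SE 0.25), were higher. Of 26 tested glycolysis and hypoxia genes, 9 were higher in PC9 and 5 in A549, the latter near the 19.6% of all tested genes. The hexokinases HK2 (-2.92) and HK1 (-2.11), the hypoxia-induced hydroxylase EGLN3 (-3.73) and the carbonic anhydrase CA9 (-2.58) were higher in PC9. The related CA12, however, had 1437, 1429.9 and 1476 CPM in A549-NEO against 2.75, 3.56 and 3.9 CPM in PC9-NEO (8.69, SE 0.11, adjusted p = 5.08e-38).

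**Figure D3:**
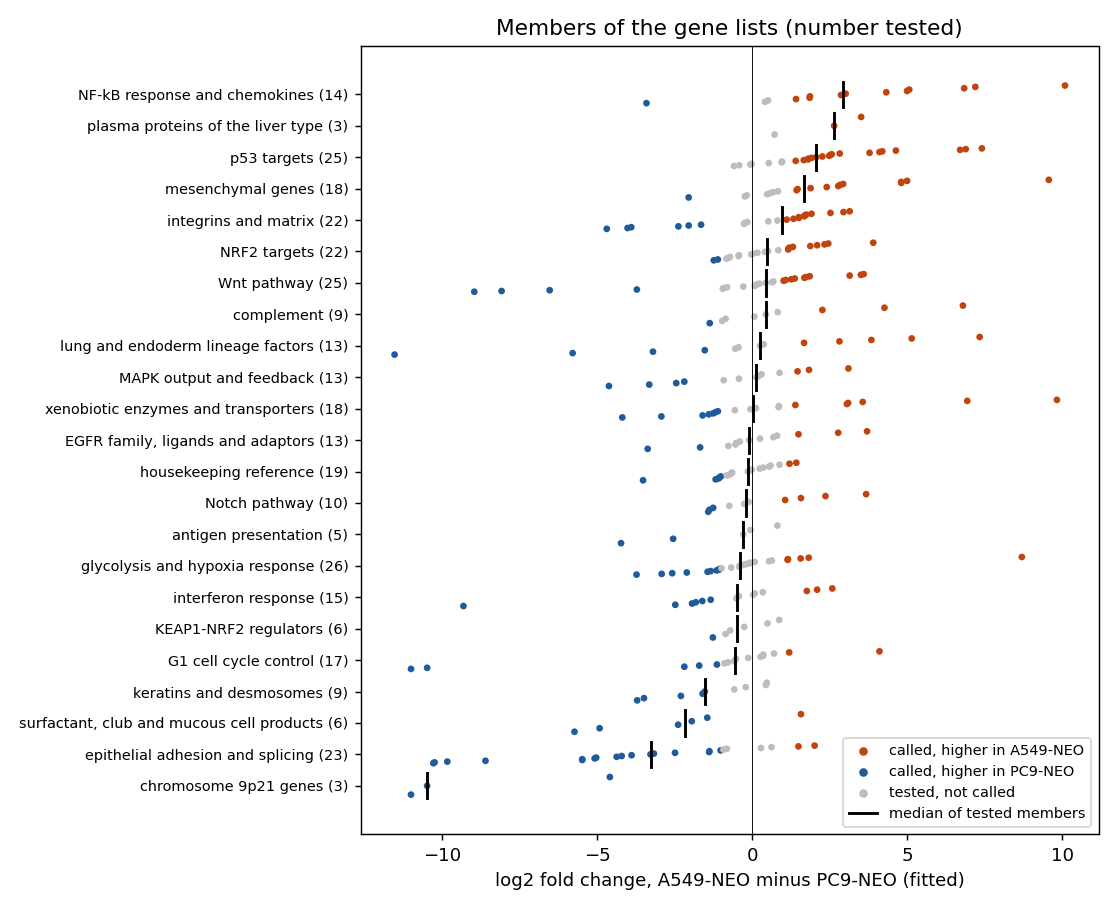
Fitted log2 fold change (A549-NEO minus PC9-NEO) of each tested member of the gene lists, ordered by the median of the list (black bar), with the number tested in brackets. The NF-κB, p53 and mesenchymal lists lie mostly to the right (medians 2.94, 2.06 and 1.67) and the epithelial list to the left (median -3.28).

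Of 19 tested housekeeping genes 2 were higher in A549 and 5 in PC9, which together is near the 36.0% called over all tested genes. GAPDH had 10576, 11013 and 11285 CPM in PC9-NEO and 5379, 5217 and 5144 CPM in A549-NEO (-1.06, SE 0.04, adjusted p = 8.56e-24), close to the fold threshold. TFRC, the transferrin receptor, was far from equal, with 200, 246 and 246 CPM in PC9-NEO against 20.3, 24.4 and 15.6 CPM (-3.52, SE 0.13). TBP, HPRT1 and B2M had log2 fold changes of 0.24, -0.02 and -0.06. In CPM per kilobase of exon, ferritin light chain, FTL, was the highest gene of both lines among the genes held here, at 9452 ± 154 in A549-NEO and 5266 ± 210 in PC9-NEO. IGFBP4 came second in A549-NEO (6901 ± 87.2) but had 53 ± 5.02 in PC9-NEO, and GAPDH came second in PC9-NEO (4574 ± 149). FTH1 and the overlapping gene BEST1, whose reads cannot be told apart with certainty, and RPL8 made up the other highest genes of both lines.

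The balance of calls differed between chromosomes. On chromosome 17, 187 of 495 tested genes were higher in A549 (37.8%) and 34 in PC9, with a median log2 fold change of 0.67. Chromosome 15 was alike, with 114 of 281 higher in A549 (40.6%) and 20 in PC9 (median 0.66). In contrast, 246 of 963 genes on chromosome 1 were higher in PC9 (25.5%) and 86 in A549 (median -0.36), and on chromosome 22 the numbers were 55 and 21 of 209 (median -0.40). In the HOXC6 libraries the medians of chromosomes 17, 15, 1 and 22 were 0.71, 0.62, -0.37 and -0.26. Neighbouring genes share copy number, which was not measured here, so these counts are descriptions.

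**Figure D4:**
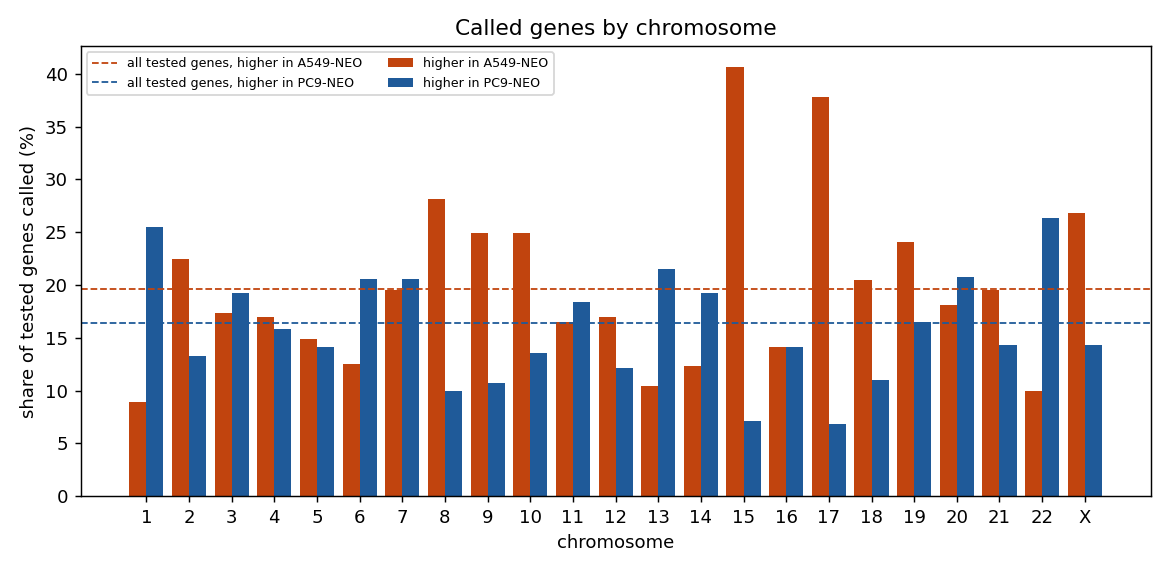
Share of the tested genes of each chromosome, in percent, called higher in A549-NEO (orange bars) or in PC9-NEO (blue bars), with the shares over all tested genes, 19.6% and 16.4%, as dashed lines. Chromosomes 15 and 17 exceed 37% toward A549, and chromosomes 1 and 22 exceed 25% toward PC9.

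In windows of 10 Mb (220 windows with at least 15 tested genes, GRCh37), the lowest median was on chromosome 1 from 110 to 120 Mb. Of its 54 tested genes, 34 were higher in PC9 and 0 in A549 (median -1.53, and -1.45 over 53 genes in the HOXC6 libraries). The highest medians were on chromosome 8 from 10 to 20 Mb (1.66, with 14 of 22 genes higher in A549 and 1 in PC9), on chromosome 15 from 50 to 60 Mb (1.38, 23 and 1 of 37) and on chromosome 9 from 0 to 10 Mb (1.38, 14 and 1 of 22). The median had the same sign in the HOXC6 libraries in 189 of the 220 windows. Of the silent genes, 7 runs of 2 neighbours in the table were silent in PC9, and 6 runs of 2 or 3 neighbours were silent in A549. Neighbours are adjacent among the genes held here, and genes not analysed here can lie between them.

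The comparison was repeated in A549-HOXC6 and PC9-HOXC6, which share no library with the NEO groups but carry HOXC6 in both lines. Of 8828 genes tested there, 1585 were higher in A549-HOXC6 (18.0%) and 1408 in PC9-HOXC6 (15.9%). Of the 1779 genes higher in A549-NEO, 1658 were tested again, 1264 were called in the same direction (76.2%) and 1635 had the same sign. Of the 1491 higher in PC9-NEO, 1433 were tested, 1065 were called again (74.3%) and 1414 had the same sign. A single gene was called in opposite directions, ASL, an enzyme of the urea cycle, with log2 fold changes of -1.04 and 1.2. Each of the 121 called genes named by the rule that could be tested again had the same sign, beside 98.6% of all called genes tested again. Most of the named genes were chosen for large differences in NEO, so their count adds no separate support. The medians of the genes called in NEO were 1.80 and -1.63 in NEO and 1.62 and -1.58 in the HOXC6 libraries.

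**Figure D5:**
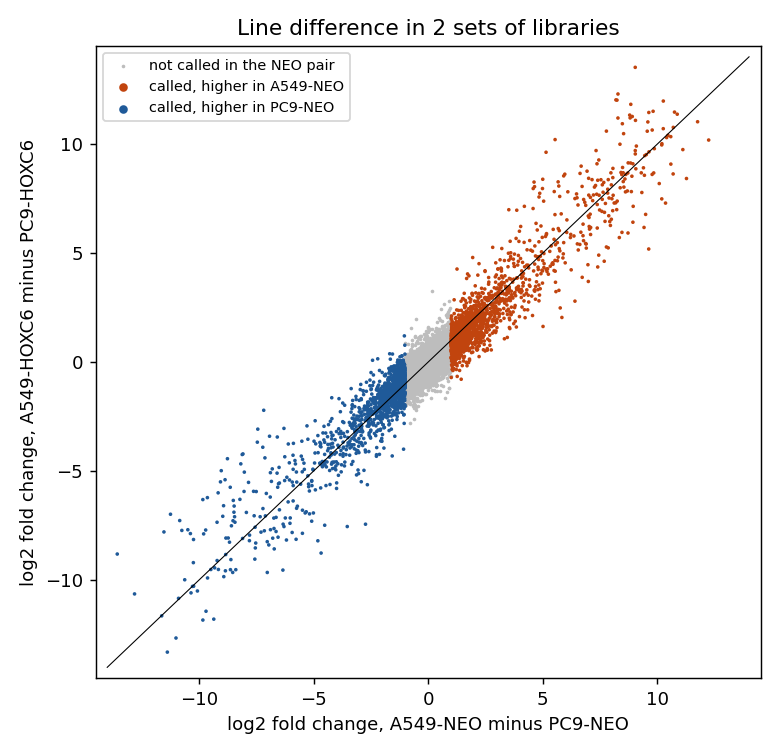
Log2 fold change of A549-HOXC6 minus PC9-HOXC6 against that of A549-NEO minus PC9-NEO for each gene tested in both, with the line of equality. Genes called in the NEO comparison are coloured, and 3049 of 3091 keep their sign.

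Silence was also followed into these libraries. The same pattern, at most 3 counts over 1 line and at least 10 CPM in each library of the other, held for 104 of the 142 genes silent in PC9-NEO (73.2%) and for 67 of the 93 silent in A549-NEO (72%). In PC9-HOXC6, 120 of the 142 had at most 3 counts, and 1 had more than 20, GAL3ST1 with 35. In A549-HOXC6 the numbers were 72 of 93 and 2, TIMP3 with 38 counts and WNT6 with 32. KLK6, S100A9, CDKN2A and RAB25 in A549-HOXC6, and VCAN, GJA1, UBE2M and BICC1 in PC9-HOXC6, had from 0 to 2 counts. In contrast, ALPP with 6 counts in A549-HOXC6 and CXCL5 with 5 in PC9-HOXC6 no longer met the rule.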

How the data were processed

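Poly(A) RNA-seq of 3 A549-NEO and 3 PC9-NEO samples was compared, and 6 samples with HOXC6 served as a repeat. The authors deposited raw counts for each gene, neither normalized nor pooled. Reads were aligned by the authors with HISAT2 2.1.0 to GRCh37.p13 and counted with HTSeq 0.9.1, and the submitters' notes also name bcl2fastq 2.19 and DESeq2. The strand setting and the annotation release are not given in the sources used here, and for 54 of 133 named genes exon bases overlap a gene on the other strand, so these reads could not be told apart with certainty. The authors' kit is strand-specific. The table holds 12584 complete genes, and the GRCh37 annotation used here holds 12463 of them. The table held here is ordered by Ensembl ID and cut off inside a row, which was left out. Genes with later IDs were not analysed here, so totals and CPM are relative to the genes of this table.

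Groups were taken from the labels, which give no batch. After filterByExpr had taken out low-count genes and TMM had set the scale, edgeR 4.0.16 in R 4.3.3 was used to compare the lines (quasi-likelihood test, no block), and p-values were adjusted by Benjamini-Hochberg. The HOXC6 libraries were tested in the same way, and the interaction of line and vector over 12 libraries. Levels are TMM-scaled CPM with the SD over 3 libraries, intervals are exact (Clopper-Pearson, 95%) and cover counting error only, since reads were counted without molecular identifiers. Promoter sequences are from RefSeq (GRCh38.p14). On simulated counts for this comparison (9076 genes), 93 of 98 genes changed by 1.5 on the log2 scale and 100 of 100 changed by 3 were recovered, and 6 unchanged genes were called. The changed genes were few and balanced in direction, so the simulation does not cover scaling or false calls under a difference as broad as that found. For pairs of replicates, chi-square over its degrees of freedom was 1.65 to 2.78, above counting error alone.

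The members, gene lists and tests were chosen with earlier results of these data known. Named genes are the 10 silent genes with the highest mean and the 10 largest called differences in each direction (the latter with at least 10 counts in every library of the lower line and no overlap), up to 4 called members of each list, 15 genes of known lung cancer relevance, the 5 highest genes per length in each line, the 9p21 genes and runs of at least 3 silent neighbours. Further list members are given with their values and were chosen after these were seen. Genes on chromosome Y are counted and not named. Some other genes that the rule names are not reported here. Alternatives were DESeq2 1.42.0, other scaling, filters and thresholds, a GC and length correction, the replicate block, thinning to equal depth, and each library left out.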

Additional observations from a re-analysis of the deposited data

Results flagged for a closer look

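The line difference of 17 of the 132 named genes tested (12.9%) differed between the NEO and the HOXC6 libraries by more than 1 on the log2 scale at an adjusted p under 0.05 in the interaction test over 12 libraries (edgeR's quasi-likelihood test), beside 475 of 9229 genes (5.15%) in all. Most of the named genes were chosen for large differences, so the shares are not comparable. Values are the log2 fold change of A549 over PC9 in NEO minus that in HOXC6. A larger difference toward PC9 in the NEO libraries was found for ALPP (-4.7), WNT6 (-3.9), TIMP3 (-3.61), WNT5A (-1.9), AGR2 (-1.86), IFITM3 (-1.3), EGLN3 (-1.05) and KEAP1 (-1.03), and AGR2 and KEAP1 were not past the fold threshold in the HOXC6 libraries (-0.59 and -0.3). A smaller difference toward PC9 in NEO was found for SPINT1 (1.26) and ALOX5 (2.17). A larger difference toward A549 in NEO was found for CDKN1A (1.52, with 4.10 in NEO and 2.53 in HOXC6), GDF15 (1.29) and HERC5 (1.98, with 0.55 in HOXC6), and a smaller one for HNF4A (-4.62), ALDH1A1 (-1.88), CYP24A1 (-1.74) and ALDH3A1 (-1.11). The lower line of ALPP, TIMP3, WNT6 and HNF4A had at most a few counts in at least 1 of the sets, so these fitted values depend on the prior count. The 3 libraries of a group are too few for a search for outlying samples.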

How the results depend on the processing

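The numbers of genes higher in A549-NEO (1779) and genes higher in PC9-NEO (1491) moved by more than 1.5 times under a minimum of 10 counts in every library (1112 and 966), which tests fewer genes and removes the silent ones, and with no fold change criterion, 3353 and 3243. All other settings stayed within 1.5 times: DESeq2 called 2011 and 1609, no filter 2157 and 1685, the test against a log2 fold change of 1 called 1355 and 1066, and leaving out 1 library gave 1822 to 1871 and 1517 to 1543. Scaling by library size only moved the median of all genes from 0.02 to -0.10 and the counts to 1596 and 1711, and the GC and length correction gave 1649 and 1648. Genes silent in PC9 numbered 142, and 72 with no count allowed, 236 with at least 5 CPM and 90 with at least 20 CPM in the other line, and those silent in A549 93, and 42 with no count allowed. After thinning to equal depth the numbers were 149 and 114, and with 1 library left out 150 to 172 and 94 to 116. Of the 124 called named genes, CDH1, SNRPD3, GAPDH and ESAM lost the call under at least 1 setting, and none reversed. The medians of the lineage factor and xenobiotic lists, 0.25 and 0.03, changed sign under the GC and length correction (-0.03) and under library size scaling (-0.08).

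Replicate numbers were not taken to pair the samples. Same-numbered libraries correlated at -0.044, 0.014 and -0.057 in their deviations from the group means, and other pairs of libraries across the lines at -0.031 to 0.074. Whether same-numbered samples were handled together cannot be told from these values. With the replicate block 1775 and 1487 genes were called, 3250 of them among the 3270, and the block changed no other call given here. The PC9-NEO libraries are shallower, so a gene just above the floor in A549 could be missed in PC9.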
